A study of Mus musculus with 4 samples.

Results

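Malat1 and Neat1 are long noncoding RNAs that stay in the nucleus, and their share of the unique molecular identifiers (UMIs, 1 per captured RNA molecule) was followed cell by cell in sorted lung alveolar epithelium. They are 2 of the 14561 genes listed over the 4 libraries, and 2 of the 11242 listed in every one. Both genes were chosen because their shares differed between these libraries, so all their levels and differences are given as descriptions, with no test. The libraries were alveolar type 2 (AT2) cells at postnatal day 60 (P60) and alveolar type 1 (AT1) cells at P3, P15 and P60. AT1 cells are the flat cells of gas exchange, and AT2 cells are the cuboidal cells that secrete surfactant. All mice carried Sftpc-CreER, Rosa26-Zsgreen and Hopx-RFP on a mixed FVB/C57BL6 background and had received tamoxifen, per the labels. In these mice the promoter of Sftpc, a surfactant gene of AT2 cells, drives a tamoxifen-dependent Cre that switches on the green reporter, and Hopx-RFP reports Hopx, a gene of AT1 cells. AT2 cells were sorted as GFP+CD45-, and AT1 cells as RFP+Pdpn+GFP-CD45-. AT2 lungs were digested with neutral protease and DNase I, and AT1 lungs also with elastase and type I collagenase. DAPI marked dead cells. The sources used here do not give the number of animals behind a library. With 1 library per group there was no replicate error, and sorted type and digestion cannot be told apart in the AT2 comparison.

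Malat1 is an abundant RNA of nuclear speckles, the nuclear bodies that store and modify splicing factors. Neat1 is the scaffold of paraspeckles, nuclear bodies built on its long isoform together with RNA-binding proteins such as SFPQ and NONO, and it is known to respond to several kinds of cell stress. Because both RNAs are held in the nucleus while most mRNA is cytoplasmic, their share among the RNAs of a single cell is also widely looked at as a sign of how much cytoplasmic RNA was captured with the nucleus.

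The 3′ ends of the annotated transcripts are shown because the libraries were made with a 3′ method, which counts molecules from stretches of A. Malat1 lies at chr19:5795690-5802672 and Neat1 at chr19:5824708-5845478, both on the minus strand of GRCm38, 22.035 kb apart (GENCODE M21). In the first and second sequence the capitals mark 3 runs of 10 bases or more that both 3′ ends share in the same order, of 13, 16 and 11 bases. In the first they also mark the longest run of A of Malat1, 12 bases at transcript positions 6674 to 6685. Such U-rich and A-rich stretches are known to fold into a triple helix, and RNase P is known to cut the transcript ahead of a tRNA-like piece. In the third the capitals mark AATAAA, the signal for cleavage and addition of a poly(A) tail.
Malat1 3′ region, chr19:5795913-5796074, minus strand: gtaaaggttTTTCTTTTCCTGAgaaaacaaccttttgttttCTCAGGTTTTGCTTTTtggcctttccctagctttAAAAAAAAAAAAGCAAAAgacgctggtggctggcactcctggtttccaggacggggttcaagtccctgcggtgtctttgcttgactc
Neat1 long isoform 3′ end, chr19:5824708-5824807, minus strand: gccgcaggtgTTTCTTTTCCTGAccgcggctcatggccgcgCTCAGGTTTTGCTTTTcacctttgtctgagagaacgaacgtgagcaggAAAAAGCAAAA
Neat1 short isoform 3′ end, chr19:5842307-5842366, minus strand: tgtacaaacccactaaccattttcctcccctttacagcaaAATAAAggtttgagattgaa
The Malat1 stretch covers positions 6599 to 6760 of a transcript of 6983 bases with 1 exon. The Neat1 long isoform has 20771 bases in 1 exon and the short isoform 3004 bases in 2 exons. The long Neat1 isoform holds no run of 8 A or more, while 12 A in a row occur in 4.07% of the 141767 annotated mouse transcripts. AATAAA stands 14 bases before the end of the short isoform, and it occurs on the sense strand in the last 60 bases of 27.2% of the transcripts of that length or more. The values are given per gene, so they do not separate the Neat1 isoforms. A Malat1 molecule counted at its run of A, which lies inside the annotated, uncut transcript, is not told from another.

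The 4 files held 2093 AT2 cells at P60, and 3149, 2940 and 1337 AT1 cells at P3, P15 and P60. Median UMIs per cell were 4864 in the AT2 library and 7477, 4928.5 and 5279 in the AT1 libraries, from totals of 10379705, 26536894, 15401939 and 7276458 UMIs. Pairs of libraries shared 3 to 15 cell barcodes. Each library was clustered without Malat1 and Neat1, and all values below are from cells in clusters of the sorted type: 2019 AT2-like cells (96.5%), and AT1-like cells numbering 2841 (90.2%) at P3, 2659 (90.4%) at P15 and 1190 (89.0%) at P60. In each library all 18 markers of the sorted type were detected in at least 25% of these cells. Markers of other types were lower: AT2 markers summed to 673, 578 and 611 CPM (UMIs scaled to a sum of 1000000) in AT1-like cells over the 3 ages, against 257666 CPM in AT2-like cells, and immune markers to between 5.94 and 76.3 CPM in all 4. The highest sums of other types were 3260 CPM of AT1 and 3144 CPM of club markers in AT2-like cells, and 1656, 2482 and 2752 CPM of ciliated markers over the 3 ages of AT1-like cells. Sec14l3 stands on both the ciliated and the AT1 list, so the ciliated sums include a marker of the sorted type itself. The part of other cell types in the results was not tested.

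At P60, 4.18% of the UMIs of AT2-like cells were Malat1. In AT1-like cells the share was 4.27% at P3, 6.68% at P15 and 16.0% at P60. The median cell held 3.50% in the AT2 library and 4.15%, 6.01% and 16.0% in the AT1 libraries. The middle 50% of cells lay between 1.91 and 5.54% in AT2 cells, and between 2.94 and 5.61% at P3, 3.65 and 9.20% at P15 and 11.8 and 20.8% at P60 in AT1 cells. The AT1 cells of P60 stood highest: 88.6% of them lay above the 95th percentile of AT1 cells at P3, which was 8.03%, and 49.2% above that of P15, which was 16.1%. Of the AT2 cells, 2.28% lay above the median AT1 cell of P60. The AT2 cells and the AT1 cells of P3, neighbours in the order of the levels, did not differ beyond their spread over cells. The spread within a library was wide, with a highest cell of 70.5% in the AT2 library and of 25.4%, 37.0% and 64.4% in the AT1 libraries. Malat1 was the most abundant gene by UMIs in the 3 AT1 libraries and ranked 2 in the AT2 library. In UMIs per cell, the medians were 176 in AT2 cells and 307, 292 and 873 in AT1 cells at P3, P15 and P60. P3 and P15 were thus close in UMIs per cell and apart in share. All cells had a Malat1 UMI except 41 AT1-like cells at P15.

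**Figure D1:**
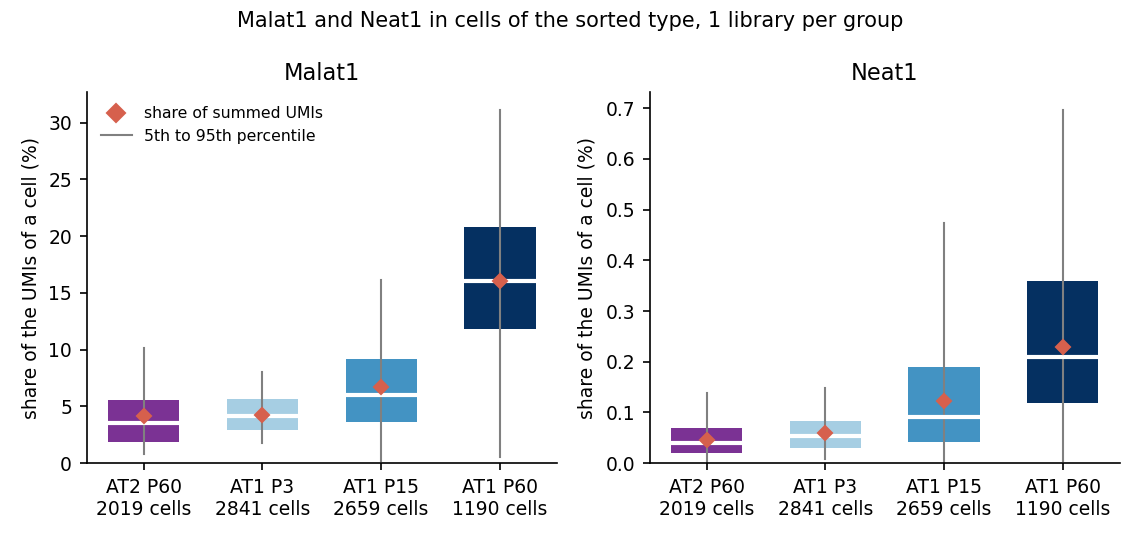
Share of the UMIs of a cell (vertical axis, %) that were Malat1 (left) or Neat1 (right) in cells of the sorted type; boxes span the middle 50% of cells, white lines are medians, thin lines run from the 5th to the 95th percentile and diamonds are the share of summed UMIs. The AT1 P60 library is highest for both genes, at 16.0% and 0.229%, and the AT2 P60 library is lowest, at 4.18% and 0.0466%.

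Neat1 followed the same order of libraries, again with the middle 50% of AT2 cells (0.0191 to 0.0693%) and of AT1 cells at P3 (0.0297 to 0.0840%) overlapping. Its UMIs made up 0.0466% of those of AT2-like cells, and in AT1-like cells 0.0591% at P3, 0.123% at P15 and 0.229% at P60. The median cell held 0.0390% in the AT2 library and 0.0532%, 0.0908% and 0.208% in the AT1 libraries, or 2 UMIs and 4, 5 and 11 UMIs. Cells of P60 overlapped more with P3 for Neat1 than for Malat1, since 64.2% of AT1 cells at P60 lay above the 95th percentile of P3, and 14.6% above that of P15. Of the AT2 cells, 1.54% lay above the median AT1 cell of P60. A Neat1 UMI was found in 83.1% of AT2-like cells, and at P3, P15 and P60 in 95.4%, 89.9% and 94.96% of AT1-like cells. With every cell thinned to 2000 UMIs the shares of cells were 57.4%, and 65.6%, 77.6% and 92.7%, with 68 AT2 cells and 0, 210 and 121 AT1 cells too shallow to keep. The thinned means were 0.951 UMIs in AT2 cells and 1.197 in AT1 cells at P3, near the level of 1 UMI, so no order is read between these libraries from them. No cell type here is known to lack Neat1, and the lowest share of cells with a UMI in any cluster was 30.95%, in 42 endothelial-like cells of the P15 library with a median of 3499 UMIs. For every 1000 Malat1 UMIs there were 11.1 Neat1 UMIs in AT2 cells and 13.8, 18.4 and 14.3 in AT1 cells at P3, P15 and P60, so this ratio stayed within a narrower range than either share.

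Over the ages, both genes were highest in the AT1 library of P60. Malat1 stood at 160219 CPM at P60 against 42679 CPM at P3, 3.75-fold higher (95% interval 3.74 to 3.76), and Neat1 at 2291 CPM against 591 CPM, 3.88-fold higher (3.79 to 3.97). These intervals, like all others here, cover counting error only. Both genes passed the 2-fold mark in this comparison, as 13.3% of the 3460 genes of at least 50 CPM did in this direction, with 9.65% in the other. The rule that chose the genes used these contrasts, so nothing is read from these counts. Between P15 and P3 the ratio was 1.57 (1.56 to 1.57) for Malat1, under the 2-fold mark, and 2.08 (2.03 to 2.13) for Neat1, above it, with 9.25% of genes called higher and 6.66% lower. Between P60 and P15 it was 2.40 (2.39 to 2.41) for Malat1 and 1.86 (1.82 to 1.91) for Neat1, with 3.91% of genes called higher and 4.4% lower. The P15 over P3 step was close to level for Malat1 in UMIs per cell without scaling, with ratios of 1.02 for Malat1 and 1.35 for Neat1. Neat1 at P60 over P15 lay between 1.72 and 2.27 over the alternatives tried, on both sides of the 2-fold mark. The later libraries differed from P3 in make-up too: ribosomal protein genes took 19.9%, 7.22% and 4.64% of UMIs at P3, P15 and P60, and mitochondrially encoded (mt-) genes 2.20%, 3.06% and 3.05%. Their part in the differences between ages was not tested.

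At P60, both genes were lower in AT2 cells than in AT1 cells. Malat1 was at 41775 CPM in AT2 cells against 160219 CPM in AT1 cells, 3.84-fold lower (3.82 to 3.85), and Neat1 at 466 CPM against 2291 CPM, 4.92-fold lower (4.76 to 5.09). Both passed the 2-fold mark, as 40.9% of the 3498 genes did in this direction and 13.4% in the other. The median gene was itself lower in AT2 cells, with a log2 ratio of -0.74. When the libraries were scaled by a trimmed mean of log ratios, 23.6% of genes were lower and 21.1% higher, and Malat1 was 2.42-fold and Neat1 3.10-fold lower in AT2 cells. Ribosomal protein genes took 14.2% of UMIs in AT2 cells against 4.64% in AT1 cells of P60, and mt- genes 6.22% against 3.05%, and their part was not tested.

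The AT1 libraries held small clusters of AT2-like cells, which went through the AT1 digestion and sort. At P60, 56 such cells had a Malat1 share of 5.66% against 16.0% in the 1190 AT1-like cells of the same library, 2.83-fold lower (2.78 to 2.88). Their Neat1 share was 0.0784% against 0.229%, 2.92-fold lower (2.54 to 3.38). The direction is that seen between the sorted libraries. The S100a8 and S100a9 genes of neutrophils stood among the leading genes of this cluster, and its immune markers summed to 10755 CPM. Clustered at a resolution of 1, the library held 45 AT2-like cells and a separate cluster of 11 cells led by S100a8 and S100a9. The 56 cells may thus be mixed, and none were set aside, unlike among the AT1-like cells. Their AT1 markers summed to 11819 CPM, against 57512 CPM in the AT1-like cells and 3260 CPM in the sorted AT2-like cells. Their median UMI count was 2881 against 5383.5, and their median ribosomal protein share 14.3% against 5.32%. At P3, 65 AT2-like cells had 2.99% Malat1 against 4.27% in AT1-like cells, 1.43-fold lower (1.41 to 1.44). Their Neat1 share was 0.0584% against 0.0591%, a ratio of 0.989 with an interval of 0.912 to 1.07, so no difference was detectable there at this depth. The P3 cluster was deeper than its AT1-like cells, with a median of 16685 against 7294 UMIs. Its AT1 markers summed to 17897 CPM, against 39108 CPM in the AT1-like cells of P3 and 3260 CPM in the sorted AT2-like cells. The clusters of 56 and 65 cells thus held more AT1 RNA than sorted AT2 cells, and its part in their shares was not tested.

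The shares moved with how much RNA a cell gave in the AT1 libraries, and for Neat1 in the AT2 library. For Malat1 in AT2 cells there was no order, with medians of 4.13, 3.14, 3.36, 3.38 and 3.66% in 5 equal groups of rising depth. The measures set against the shares were taken over UMIs other than Malat1 and Neat1. This keeps mt- share and ribosomal protein share from being tied to the genes by the sum, but not depth. Depth so counted is part of the total that each share was divided by, so part of its relation is arithmetic. Spearman's rho between the Malat1 share and depth was -0.04 across the 2019 AT2 cells, and -0.29, -0.11 and -0.29 across the 2841, 2659 and 1190 AT1 cells of P3, P15 and P60. For Neat1 it was -0.16 in AT2 cells and -0.18, -0.25 and -0.33 in AT1 cells. In cells of 4000 to 8000 UMIs the rho of Malat1 with depth was -0.25 at P15 and -0.51 at P60 in AT1 cells, and with all cells of the P60 AT1 library that of Neat1 was -0.21. After thinning to 2000 UMIs that of Malat1 was -0.44 at P60, and over all UMIs it was -0.17. The cells of 1 library share their preparation, so these are descriptions. When AT1 cells of P60 were put into 5 equal groups by depth, the median Malat1 share was 20.7% in the shallowest, then 19.3, 17.4 and 15.3%, and 13.1% in the deepest. The median Malat1 UMIs per cell ran the other way, with 406.5 in the shallowest and 1183 in the deepest group. Malat1 UMIs thus grew with depth but by less than the rest of the cell. Neat1 in the same cells had a median of 0.373% and 7.5 UMIs in the shallowest group, and 0.135% and 12.5 UMIs in the deepest. The shallowest group was mixed, and its medians hide cells with almost no Malat1. Its lower and upper quartiles of the Malat1 share were 0.802% and 27.5%, against 14.4% and 24.6% in the next group. The order of the medians by depth does not describe those cells of low share.

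The share of mt- genes moved with both RNAs in the later AT1 libraries. Spearman's correlation between mt- share and Malat1 share was 0.17 in AT2 cells and -0.02, 0.20 and 0.30 in AT1 cells at P3, P15 and P60. For Neat1 it was 0.19 in AT2 cells and 0.08, 0.48 and 0.41 in AT1 cells. At P60 in AT1 cells the rho of Malat1 was 0.11 in cells of 4000 to 8000 UMIs and 0.15 over all UMIs, and that of Neat1 0.25 in cells of 4000 to 8000 UMIs. At P15 the median Neat1 share was 0.0493% in the 1 of 5 equal groups of cells with the lowest mt- share and 0.246% in that with the highest. At P60 those shares were 0.138% and 0.403%, and the Malat1 shares 13.9% and 21.5%. At P3 the Malat1 medians of all 5 groups lay between 3.91 and 4.46%, with no order by mt- share.

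Ribosomal protein share ran against both RNAs, most of all in AT1 cells at P60. Spearman's correlation between it and the Malat1 share was -0.21 in AT2 cells and -0.17, -0.26 and -0.64 in AT1 cells at P3, P15 and P60. For Neat1 it was -0.15 in AT2 cells and -0.11, -0.25 and -0.62 in AT1 cells. In AT2 cells the rho of Malat1 was -0.080 in cells of 4000 to 8000 UMIs and -0.34 over all UMIs, and in AT1 cells of P15 it was -0.39 over all UMIs. For AT1 cells of P60 the rho of both genes was also weaker in cells of 4000 to 8000 UMIs, as given further below. Over 5 groups of rising ribosomal protein share, P60 AT1 cells had median Malat1 shares of 22.9, 19.3, 16.0, 13.5 and 9.53% and Neat1 shares of 0.441, 0.272, 0.192, 0.152 and 0.0862%. In AT2 cells the lowest group had 5.08% Malat1 and the other 4 between 3.05 and 3.31%. The P60 AT1 group of highest ribosomal protein share was mixed. Its lower and upper quartiles of Malat1 were 0.653% and 13.9%, against 11.1% and 16.2% in the group before it. A P60 cluster of 123 cells described below had medians of 0.588% Malat1 and 7.88% ribosomal protein share. How far such cells set the 9.53% and the rho of -0.64 was not tested.

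**Figure D2:**
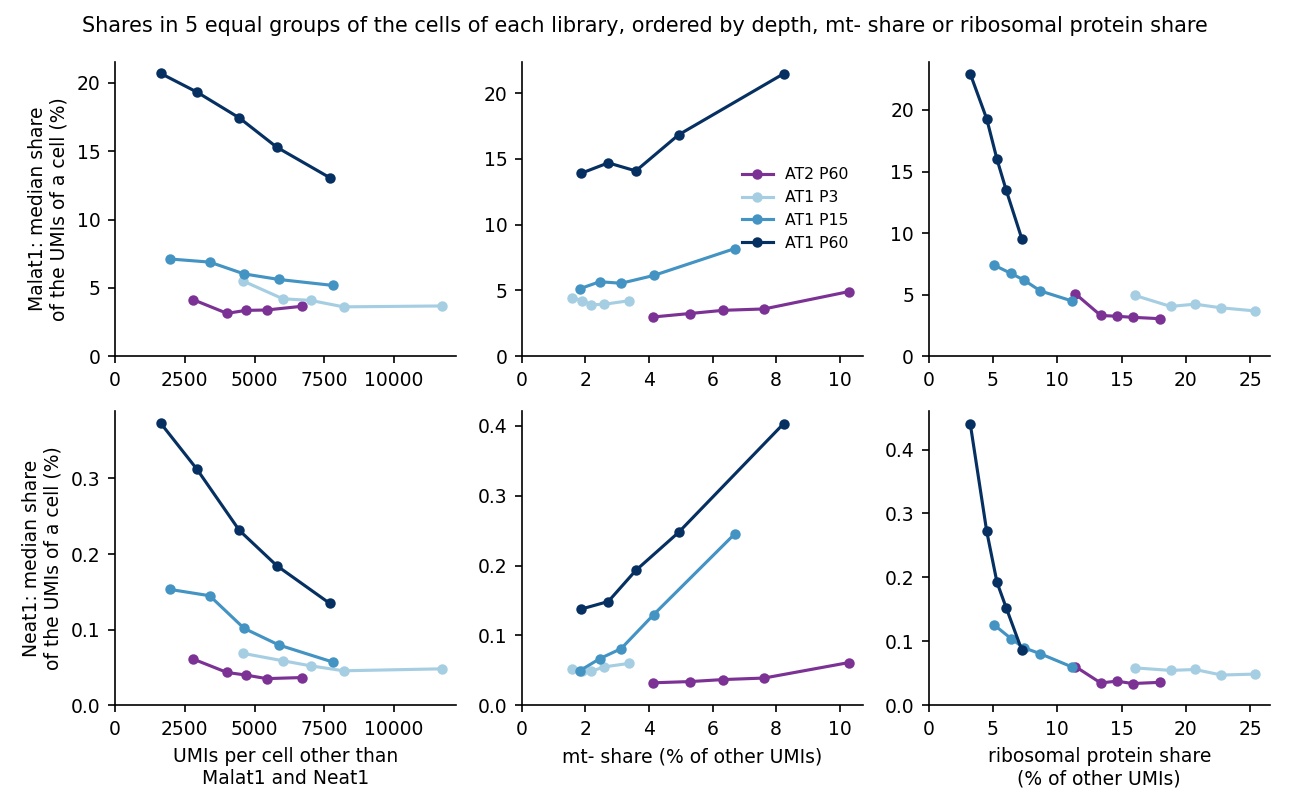
Median Malat1 (top) and Neat1 (bottom) share of the UMIs of a cell (vertical axes, %) in 5 equal groups of the cells of each library, placed at the median depth, mt- share or ribosomal protein share of the group (horizontal axes, over UMIs other than the 2 genes). The AT1 P60 line lies above the others for Malat1 in all panels, with 22.9% in the group of lowest and 9.53% in the group of highest ribosomal protein share.

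Among cells of matched depth the AT1 libraries kept their order for both genes. At 4000 to 6000 UMIs the median Malat1 share was 3.33% in AT2 cells and 5.06, 6.11 and 17.6% in AT1 cells at P3, P15 and P60, and the Neat1 share 0.0369%, and 0.0654, 0.102 and 0.238%. The AT2 library was lowest for both genes in each window of depth or mt- share that held 20 or more cells of all 4 libraries, apart from Malat1 at 8000 to 12000 UMIs, where its median was 3.74% in 87 AT2 cells and 3.64% in 766 AT1 cells of P3. Cells with an mt- share of 2 to 4% had Malat1 medians of 3.13% in AT2 cells and 3.96, 5.56 and 14.5% in AT1 cells. The AT1 library of P60 was also highest in every other window of depth or mt- share that held at least 20 of its cells, for both genes. Ribosomal protein share could be matched for all pairs of libraries but AT1 P60 with AT1 P3. At 15 to 20% the Malat1 median was 2.98% in 818 AT2 cells and 4.20% in 1044 AT1 cells of P3, with Neat1 medians of 0.0356% and 0.0550%. Below 5% it was 20.6% in 487 AT1 cells of P60 and 7.61% in 249 of P15, with Neat1 medians of 0.346% and 0.148%. At 5 to 10% the Malat1 median was 8.72% in 71 AT2 cells and 6.17% and 13.5% in 1950 and 686 AT1 cells of P15 and P60. Between P15 and P3 the medians and the summed shares differed in direction in part. At 15 to 20% the Malat1 median was 3.16% in 43 AT1 cells of P15 and 4.20% in 1044 of P3, while the summed shares were 4.396% and 4.380%. The Neat1 medians were 0.0362% and 0.0550%, and the summed shares 0.0508% and 0.0610%. At 10 to 15% the Malat1 median was 4.70% in 413 cells of P15 and 5.86% in 156 cells of P3, with summed shares of 5.29% and 5.77%. For Neat1 the medians were 0.0628% and 0.0674%, and the summed shares 0.0835% and 0.0770%. The middle 50% of cells overlapped in all of these, so no direction is read for P15 against P3 at like ribosomal protein share. Below 5% there were also 34 AT2 cells, with a Malat1 median of 48.9%, above the AT1 cells of P60. By that median, many of them were among the 24 AT2 cells of 40% Malat1 or more described below. Those 24 had a median of only 1113 UMIs. Depth was not matched in this window, so no order of the types is read from it.

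Within a library, clusters high in one RNA were mostly high in the other. In the P3 library the AT1-like clusters lay close to each other, with median Malat1 shares of 3.37 to 4.59% and Neat1 shares of 0.0413 to 0.0588%. At P15 the AT1-like clusters ran from 4.56 to 8.35% for Malat1 and from 0.0526 to 0.210% for Neat1. The P15 clusters of 595 and 306 cells that were led by Lars2 (a mitochondrial leucyl-tRNA synthetase) had the highest Neat1 medians, 0.210% and 0.179%, with median mt- shares of 4.79% and 5.86% against 2.38 to 3.04% in the other AT1-like clusters. At P60 the cluster of 433 cells led by Lars2 and Gm42418 had 21.6% Malat1 and 0.388% Neat1, at a median depth of 3528 UMIs and an mt- share of 5.84%. The P60 clusters of 390 and 282 cells had 13.3% and 15.8% Malat1 and 0.137% and 0.208% Neat1. A last P60 AT1-like cluster of 123 cells held a median of only 0.588% Malat1 and 0.0267% Neat1. It was shallow, with a median of 1950 UMIs, had a median ribosomal protein share of 7.88%, and was led by Cyb5r3, Bag1 and Gcsh. In the AT2 library, clusters of 786 and 720 cells had Malat1 medians of 4.29% and 4.35%, and a cluster of 515 cells led by Lrg1, Dmkn and Pon1 had 1.58%, with Neat1 medians of 0.0418, 0.0519 and 0.0235%.

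**Figure D3:**
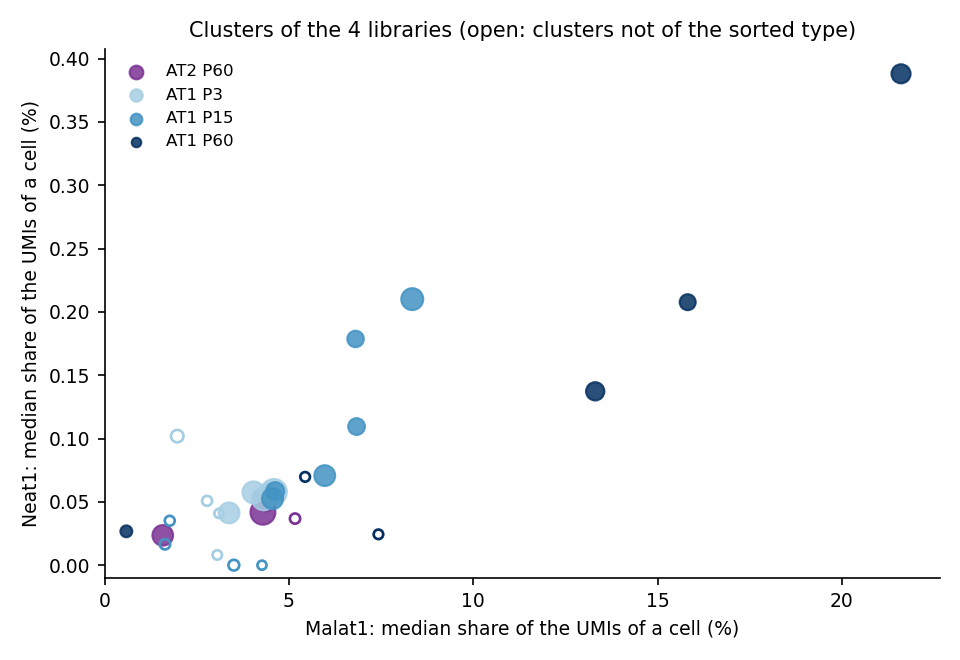
Median Malat1 share (horizontal axis, %) against median Neat1 share (vertical axis, %) of the UMIs of a cell, 1 point per cluster, with area by number of cells; filled points are clusters of the sorted type and open points other clusters. The P60 AT1 clusters run from 0.588% Malat1 and 0.0267% Neat1 to 21.6% and 0.388%.

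The AT1-like cells of P60 fell into separate ranges of Malat1. Of 1190 cells, 101 held under 1%, 6 held 1 to 2%, 4 held 2 to 5% and 85 held 5 to 10%, while 650 held 10 to 20%, 326 held 20 to 40% and 18 held 40% or more. Of the 107 cells under 2%, 104 were in the shallow cluster of 123 cells. These cells were poor in other nuclear RNAs as well. Over UMIs other than the 2 genes, Neat1 made up 273 CPM in the cells under 1% and 9240 CPM in the cells of 40% or more. Kcnq1ot1, a nuclear antisense RNA of an imprinted locus, made up 4.48 CPM under 1% and 374 CPM at 40% or more. The first value is at the counting floor, as a gene without a UMI in these 101 cells may have up to 13.4 CPM. The second rests on 18 cells, so the size of this difference is not well measured. Son, the mRNA of a speckle scaffold protein, made up 157 CPM under 1% and 1833 CPM at 40% or more. Fth1, the mRNA of the ferritin heavy chain, ran the other way, with 6651 CPM under 1% and 1309 CPM at 40% or more, and ribosomal protein genes had 8.13% and 2.84%. Ager, a defining AT1 gene, had 24152 and 27122 CPM in these bins, and Hopx, another, 8195 and 2731 CPM. The bin of 40% or more is an extreme. In all 1089 cells at 1% or more, Neat1 was at 2840 CPM, Kcnq1ot1 at 110 CPM and Son at 748 CPM. Fth1 was at 3468 CPM, Ager at 26518 CPM and Hopx at 7030 CPM in these 1089 cells. Summed AT1 markers were 61898 CPM under 1% and 70929 CPM at 40% or more, so cells at both ends carried the AT1 markers. When Malat1 and Neat1 were among the clustered genes, a P60 cluster of 108 cells with a median of 2005.5 UMIs was led by Ppbp, Pf4, Ctla2a and Itga2b, of which Ppbp, Pf4 and Itga2b are genes of platelets, which have no nucleus. A list of 12 platelet genes, added after seeing the data and with 4 listed in this library, summed to 62.7 CPM in the 101 cells under 1% Malat1 and 98.2 CPM in the 1089 cells at 1% or more. Ppbp and Pf4 had no UMI in the 101 cells, which allows up to 13.4 CPM. Without any cell holding a UMI of the list, Neat1 was at 268 CPM in 87 cells under 1% and 3004 CPM in 702 cells at 1% or more.

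The difference in Neat1 was also there between cells of like depth. Among AT1-like cells of P60 with 1500 to 3000 UMIs, Neat1 was at 279 CPM in 63 cells under 2% Malat1 and at 6948 CPM in 146 cells at 2% or more. In the AT1 library of P15, 191 cells held under 1% Malat1, 41 of them none, at a median depth of 2712 UMIs, and 26.7% of the 191 had a Neat1 UMI. The other 2468 cells of P15 had a Neat1 UMI in 94.8%, at a median depth of 5121 UMIs. At 1500 to 3000 UMIs, Neat1 was at 347 CPM in 124 P15 cells under 2% Malat1 and 2943 CPM in 408 cells at 2% or more. The P3 library held 22 cells under 1% of 2841. The AT2 library had 168 cells under 1% but no gap, as 193 cells lay between 0.75 and 1.3%, against 27, 37 and 17 AT1 cells of P3, P15 and P60 in that range. At the other end, 24 AT2 cells held 40% Malat1 or more. They had a median of 1113 UMIs, a ribosomal protein share of 3.597%, Neat1 at 7481 CPM and Kcnq1ot1 at 875 CPM, and their summed AT2 markers were 174373 CPM against 273547 CPM in the AT2 cells under 1%. The bins are ranges chosen after the shares were seen, not cell types.

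**Figure D4:**
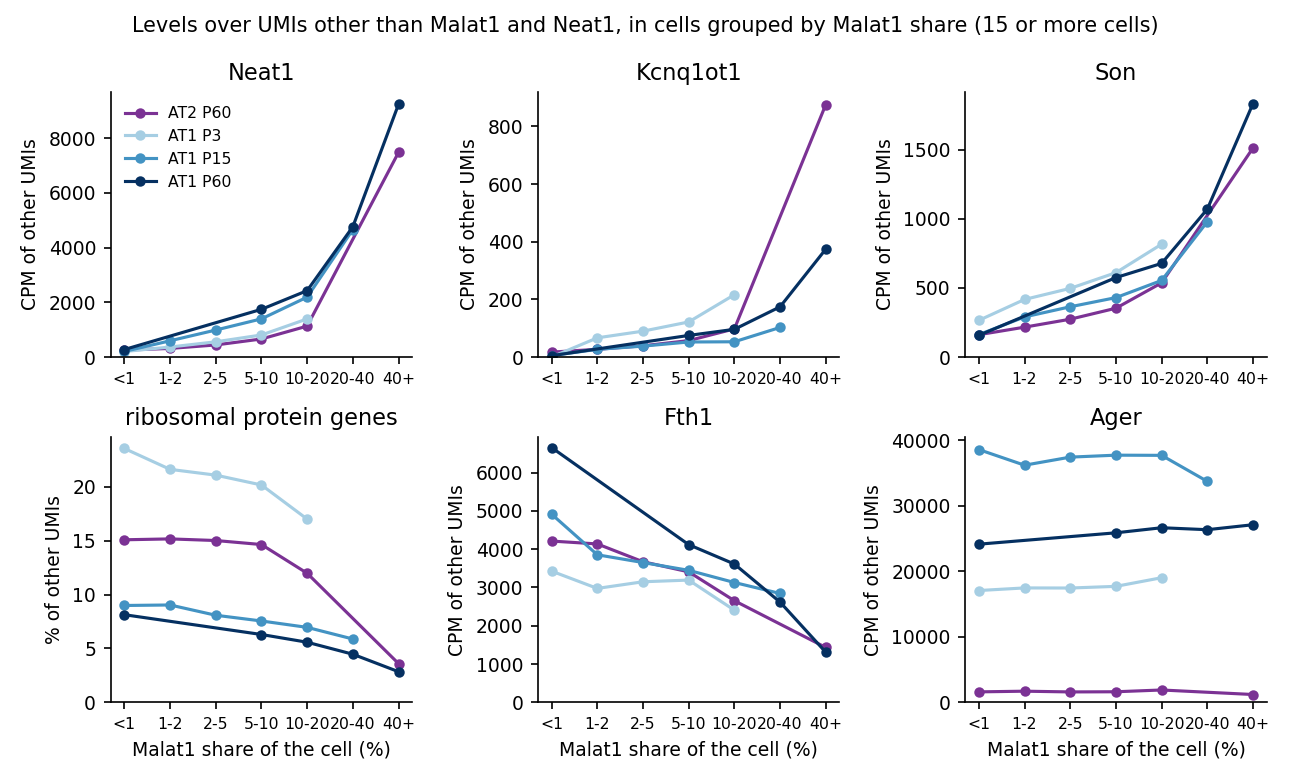
Levels over UMIs other than Malat1 and Neat1 (vertical axes, CPM, or % for ribosomal protein genes) in cells grouped by Malat1 share (horizontal axes, %), 1 line per library, bins of 15 cells or more. Neat1 and Son climb over the bins in each library, Neat1 to 9240 CPM in the AT1 P60 cells of 40% or more, while ribosomal protein genes decline to 2.84%.

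Across single cells the genes moved together in each library. Spearman's correlation between the Malat1 share of all UMIs and Neat1 among the rest was 0.41 in AT2 cells and 0.36, 0.49 and 0.64 in AT1 cells at P3, P15 and P60. In P60 AT1 cells of 4000 to 8000 UMIs it was 0.43. Spearman's correlation between the Neat1 share and Malat1 among the rest was 0.39 in AT2 cells and 0.34, 0.47 and 0.58 in AT1 cells, and after thinning to 2000 UMIs 0.26, and 0.21, 0.35 and 0.46. Other genes were ranked by the lowest of their 4 correlations, with the rest of each cell thinned to 2000 UMIs, over 1715 genes found in at least 20% of cells and over 1948 AT2 cells and 2841, 2371 and 1002 AT1 cells. All these correlations were weak. Closest to Malat1 were Rbm39 (a splicing factor, lowest rho 0.129), Pnisr (a nuclear protein tied to splicing, 0.115), Akap13 (a kinase anchor, 0.104), Swt1 (an RNA endonuclease, 0.103), Zbtb20 (a transcription repressor, 0.0989) and Son (0.0976). Farthest were Tmsb4x (the actin-binding thymosin beta 4, highest rho -0.137), Rpl41 (-0.115) and Rps27a (-0.111). Closest to Neat1 were Ogt (the enzyme that adds O-GlcNAc to proteins, 0.0801), mt-Co3 (a subunit of cytochrome c oxidase, 0.0799), Rbm39 (0.0751), Son (0.0732), Pnisr (0.0684) and Emp2 (a membrane protein high in AT1 cells, 0.0660). Farthest from Neat1 were Rps27a (-0.0803), Rpl10 (-0.0781) and Rpl19 (-0.0623). Of 82 ribosomal protein genes ranked, 73 had a negative rho with Malat1 in all 4 libraries and 70 with Neat1. Over all 1715 genes ranked, 503 had a negative rho with Malat1 in all 4 libraries and 417 with Neat1.

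Genes around the locus and genes of the same nuclear bodies were described from lists, each gene counted when it reached 20 CPM in the higher library. By that rule 10.8% of 6403 genes were at least 2-fold higher and 39.3% lower in AT2 over AT1 cells of P60. In the age comparisons 7.46% were higher and 5.72% lower for P15 over P3, 12.5% and 7.86% for P60 over P3, and 4.4% and 3.71% for P60 over P15. The medians of all these genes, on the log2 ratio scale, were -0.74, 0.12, 0.17 and 0.03 in that order. Of 20 protein-coding genes within 200 kb, 9 were counted in AT2 over AT1 cells, of which 3 were lower and 0 higher, with a median log2 ratio of -0.82. Frmd8, the nearest at 4.22 kb from Neat1 and coding for a partner of the shedding regulator iRhom, had the largest difference, with 11.9 CPM in AT2 cells against 45.6 CPM in AT1 cells. At P15 over P3, 2 of 10 neighbours were higher and 0 lower, with a median of 0.42: Ltbp3, a binding protein of latent TGF-beta, had 174 CPM at P15 against 75.5 CPM at P3, and Capn1, a calcium-activated protease, 25.5 against 12.5 CPM. At P60 over P3, 1 of 9 was higher, Capn1 at 38.4 CPM against 12.5 CPM, with a median of 0.50. At P60 over P15, 1 of 10 was lower, Ltbp3 at 81.0 CPM against 174 CPM. With a minimum of 5 CPM, 5 of 15 neighbours were higher at P60 over P3 and 4 of 15 at P60 over P15. Among those under 20 CPM, Kcnk7, a member of the potassium channel family named after its values were seen, had 5.04 CPM at P60 (33 UMIs) against 0.75 CPM at P3 (17 UMIs).

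Most of the few other nuclear long noncoding RNAs counted were higher in AT1 cells of P60 than in AT1 cells of P15 or AT2 cells. For some of them the counts may include ribosomal RNA. At P60 over P15, 5 of 6 were at least 2-fold higher in AT1 cells, with a median log2 ratio of 1.48. Gm26917 had 368 CPM at P60 against 78.2 CPM at P15, AY036118 447 against 106 CPM, Gm42418 1662 against 498 CPM, and Kcnq1ot1 88.7 against 41.5 CPM. Airn, the last of the 5, had 35.9 against 15.5 CPM. Gm42418 and AY036118 overlap ribosomal RNA sequence, so their counts, and the list medians that rest on them, may include that RNA. Whether the same holds for Gm26917 was not checked. In AT2 over AT1 cells of P60, 5 of 6 were lower, with a median of -2.55: Gm42418 had 294 CPM in AT2 cells against 1662 CPM in AT1 cells, and Kcnq1ot1 40.5 against 88.7 CPM. At P60 over P3, 3 of 7 were higher and 1 lower, with a median of 0.36. The 3 were AY036118 (447 CPM at P60 against 28.5 CPM at P3), Gm26917 (368 against 48.7 CPM) and Gm42418 (1662 against 326 CPM). These are the same RNAs whose counts may include ribosomal RNA or, for Gm26917, were not checked for it. Kcnq1ot1 had 88.7 CPM at P60 against 93.2 CPM at P3. At P15 over P3, 1 of 8 was higher and 3 lower, with a median of -0.43. Kcnq1ot1 did not follow Malat1 over the first interval, with 41.5 CPM at P15 against 93.2 CPM at P3. Meg3, an imprinted RNA of development, had 99.4 CPM at P15 against 965 CPM at P3. It is not listed in the AT1 library of P60, so the counts and medians of comparisons with that library leave it out. Xist, the RNA of the inactive X chromosome, had 0.797 CPM at P15 and 5.04 CPM at P60 against 309 CPM at P3, and the sources used here do not give the sex of the animals.

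**Figure D5:**
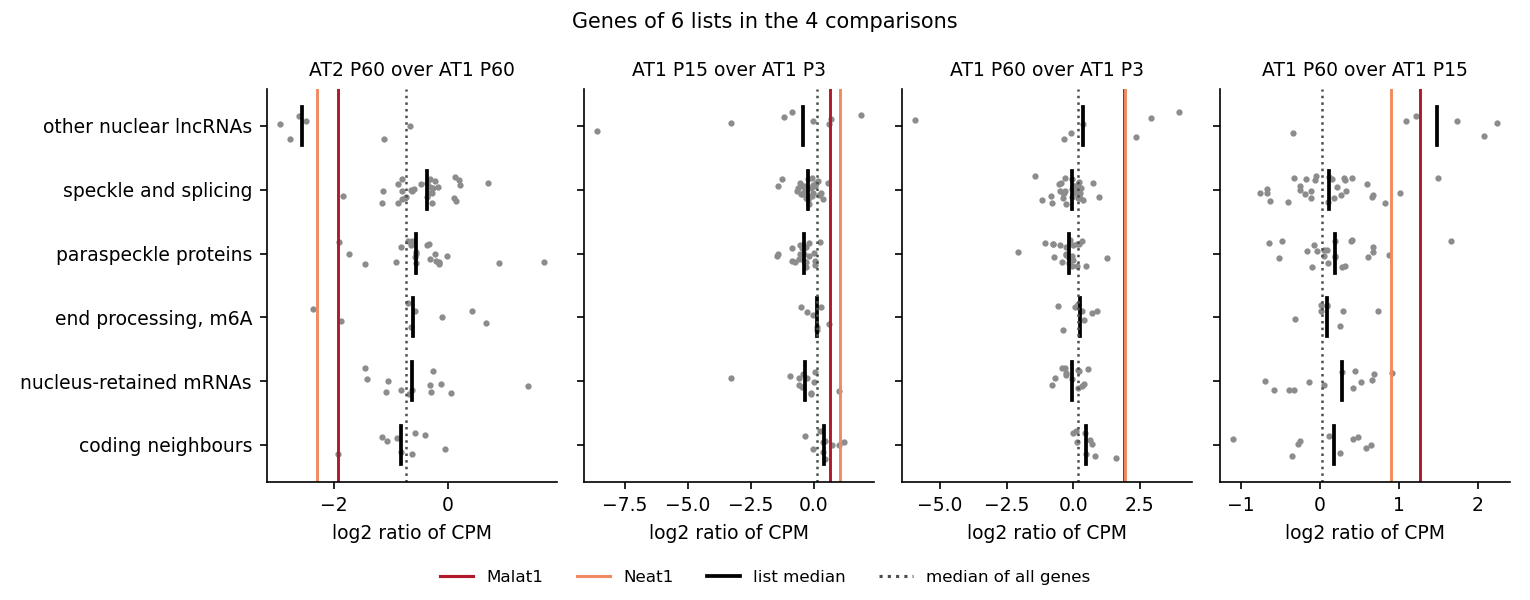
Log2 ratio of CPM (horizontal axes) of the genes of 6 lists in the 4 comparisons, 1 grey point per gene with the list median in black; red and orange lines mark Malat1 and Neat1, and dotted lines the median of all genes. The lines of the 2 genes stand at -1.94 and -2.30 for AT2 P60 over AT1 P60 and at 1.91 and 1.96 for AT1 P60 over AT1 P3, outside the list medians of the speckle and paraspeckle genes.

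Few genes for the proteins of the nuclear bodies were 2-fold apart between ages. Of 30 speckle and splicing genes, 0 were higher and 2 lower at P60 over P3, with a median log2 ratio of -0.03. Tra2a, a splicing activator, had 109 CPM at P60 against 290 CPM at P3, and Srsf6, an SR splicing factor, 76.6 against 172 CPM. At P15 over P3, 0 were higher and 2 lower, with a median of -0.21, and at P60 over P15, 2 were higher and 0 lower, with a median of 0.11. In AT2 over AT1 cells, 0 were higher and 3 lower, with a median of -0.38: Pnn, a speckle protein, had 32.1 CPM in AT2 cells against 114 CPM in AT1 cells, Son 272 against 606 CPM, and Srsf11 77.3 against 170 CPM. Of 23 paraspeckle protein genes, 1 was higher and 2 lower at P60 over P3, with a median of -0.17. Hnrnpa1, an RNA-binding protein, had 51.5 CPM at P60 against 215 CPM at P3, Nudt21, a subunit of the poly(A) cleavage factor, 34.4 against 72.2 CPM, and Rbm4b 50.4 against 20.7 CPM. In AT2 over AT1 cells 1 paraspeckle gene was higher and 3 lower of 23, with a median of -0.56. At P15 over P3, 0 were higher and 2 lower of 22, and at P60 over P15, 1 was higher and 0 lower of 23, with medians of -0.37 and 0.19.

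Genes of RNase P, which cuts the 3′ ends of both RNAs, and genes tied to their m6A methylation were taken as 1 list. The methylating enzymes Mettl3, Mettl14 and Mettl16 had at most 14.4, 11.5 and 12.4 CPM in any library. They were therefore not counted, and nothing is read about them. Of the genes counted, 0 of 7 or 8 were 2-fold apart in any age comparison. The medians were 0.15 for P15 over P3, 0.24 for P60 over P3 and 0.09 for P60 over P15. In AT2 over AT1 cells, 2 of 8 were lower, both genes of the RNase P complex: Rpp30 had 6.19 CPM in AT2 cells against 31.9 CPM in AT1 cells, and Pop4 7.79 against 28.6 CPM. The median was -0.61. RNAs described as held in the nucleus or in paraspeckles made up another list, all of them mRNAs but Meg3. Meg3 is not listed in the AT1 library of P60, so comparisons with that library leave it out. Of the others, 0 of 13 were 2-fold apart at P60 over P3 or P60 over P15, with medians of -0.05 and 0.29. At P15 over P3, 1 of 12 was lower, Meg3, with a median of -0.34, and in AT2 over AT1 cells 4 of 13 were lower and 1 higher, with a median of -0.63. Among host genes of small nucleolar RNAs, 2 were higher and 3 lower of 5 at P60 over P3, 2 higher and 1 lower of 4 at P60 over P15, 0 higher and 2 lower of 5 at P15 over P3, and 2 higher and 1 lower of 6 in AT2 over AT1 cells.

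Gene groups with known ties to Neat1 or to the state of the cells were counted beside these. Of genes of p53, heat shock and hypoxia responses, which are known to raise Neat1, 0 were higher and 2 lower of 11 at P60 over P3. Cdkn1a, a p53 target, had 30.9 CPM at P60 against 149 CPM at P3, and Atf4, a factor of the integrated stress response, 82.2 against 181 CPM. At P15 over P3, 1 of 12 was higher, at P60 over P15, 1 of 12 was lower, and in AT2 over AT1 cells 1 was higher and 3 lower of 12. Immediate early and dissociation response genes ran against Malat1 and Neat1 over the ages, with 2 higher and 16 lower of 21 at P60 over P3 and a median log2 ratio of -1.71. Fos had 99.8 CPM at P60 against 2367 CPM at P3. At P15 over P3, 2 were higher and 9 lower of 21, at P60 over P15, 1 was higher and 13 lower of 20, and in AT2 over AT1 cells 8 were higher and 6 lower of 19. Of 84 ribosomal protein genes, 75 were higher and 0 lower in AT2 over AT1 cells, 0 higher and 77 lower at P15 over P3, 0 higher and 80 lower at P60 over P3, and 1 higher and 7 lower at P60 over P15. Of the mt- genes, 7 of 13 were higher in AT2 over AT1 cells, 3 of 13 at P60 over P3, 2 of 13 at P60 over P15 and 0 of 12 at P15 over P3, and 0 were lower. What these groups had to do with the shares of Malat1 and Neat1 was not tested.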

How the data were processed

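Per the labels, sorted lung cells went through the single-cell 3′ protocol of 10x Genomics, as 4 libraries in 4 groups. The deposited values are the natural log of 1 plus the UMIs of a gene scaled to 10000 per cell, which the values bear out, since they sum to that in every cell. Cell Ranger 1.3.1, Seurat 2.0.0 and the builds mm10 and hg19 are named per the submitters' processing notes; the sources used here give no role for hg19. Unlogging and dividing by the smallest step of a cell gave whole UMIs for 100% of values within 0.05, and all counting used them. The files held 0 other value columns.

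Cells were clustered library by library (Scanpy 1.11.5, igraph 0.11.9; 2000 variable genes without Malat1 and Neat1, 20 components, 15 neighbours, Leiden resolution 0.5). Clusters were named from marker lists, the sorted type needing 10 markers in 25% of cells; a rule added after seeing the data left a cluster led by another class unnamed. No doublet caller was used, but cells with 3 or more markers of another class (4 mesothelial, 5 airway) were set aside. Ratios are of summed UMIs, with exact 95% Poisson, conditional or binomial intervals; functions were tested on simulated data. Totals of a library were 7276458 to 26536894 UMIs. Genes named from a list are up to 4 with the largest log2 ratio; those named as alike have the highest lowest correlation (6 genes) or the lowest highest one (3 genes). The members and lists were chosen with earlier results of these data known. Scaling, depth, mt- share, clustering and thinning alternatives were tried. The Malat1 bins and the comparison within a library were chosen after seeing the data. Transcript sequences are from GENCODE M21 (GRCm38); promoters were not used here.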

Additional observations from a re-analysis of the deposited data

How the results depend on the processing

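No paired analysis was possible because each group is 1 library and no label ties cells of one library to another. Log2 ratios kept their direction under all 10 alternatives for both genes and all 4 comparisons, and 64 of 80 moved by more than counting error. With all cells of a library, they were -1.86 (AT2 over AT1), 1.92 (P60 over P3) and 1.28 (P60 over P15) for Malat1 and -2.21 (AT2 over AT1), 0.89 (P15 over P3) and 1.81 (P60 over P3) for Neat1. With Malat1 and Neat1 left out of the totals, they were -2.13 (AT2 over AT1), 0.68 (P15 over P3), 2.10 (P60 over P3) and 1.42 (P60 over P15) for Malat1 and -2.49 (AT2 over AT1), 1.09 (P15 over P3), 2.15 (P60 over P3) and 1.05 (P60 over P15) for Neat1. With ribosomal protein, mt- and haemoglobin genes left out of the totals, they were -1.73 (AT2 over AT1), 0.44 (P15 over P3), 1.66 (P60 over P3) and 1.22 (P60 over P15) for Malat1 and -2.08 (AT2 over AT1), 0.85 (P15 over P3), 1.71 (P60 over P3) and 0.86 (P60 over P15) for Neat1. With a trimmed mean of log ratios, they were -1.27 (AT2 over AT1), 0.60 (P15 over P3), 1.69 (P60 over P3) and 1.14 (P60 over P15) for Malat1 and -1.63 (AT2 over AT1), 1.01 (P15 over P3), 1.73 (P60 over P3) and 0.78 (P60 over P15) for Neat1. As means of cell shares, they were -1.80 (AT2 over AT1), 0.64 (P15 over P3) and 1.90 (P60 over P3) for Malat1 and -2.36 (AT2 over AT1), 1.24 (P15 over P3) and 2.11 (P60 over P3) for Neat1. In cells of 4000 to 8000 UMIs, they were -2.10 (AT2 over AT1), 0.55 (P15 over P3), 1.87 (P60 over P3) and 1.32 (P60 over P15) for Malat1 and -2.45 (AT2 over AT1), 0.90 (P15 over P3), 1.87 (P60 over P3) and 0.97 (P60 over P15) for Neat1. In cells under 5% mt- share, they were 0.60 (P15 over P3), 1.88 (P60 over P3) and 1.27 (P60 over P15) for Malat1 and 0.84 (P15 over P3), 1.84 (P60 over P3) and 1.00 (P60 over P15) for Neat1. With Malat1 and Neat1 among the clustered genes, which left 1506 AT2-like cells and 900 AT1-like cells at P60 as the sorted type, they were -2.42 (AT2 over AT1), 2.08 (P60 over P3) and 1.43 (P60 over P15) for Malat1 and -2.78 (AT2 over AT1), 2.24 (P60 over P3) and 1.18 (P60 over P15) for Neat1. As UMIs per cell without scaling, an alternative added after seeing the data, they were -2.09 (AT2 over AT1), 0.026 (P15 over P3), 1.37 (P60 over P3) and 1.35 (P60 over P15) for Malat1 and -2.45 (AT2 over AT1), 0.44 (P15 over P3), 1.42 (P60 over P3) and 0.98 (P60 over P15) for Neat1.

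Of 128 values of rho, 24 moved by more than 0.1. With all cells, that of Malat1 was with depth -0.19 in AT1 P60, and that of Neat1 was with depth -0.21 in AT1 P60. With the measures taken over all UMIs, that of Malat1 was with depth -0.17 in AT1 P60, with mt- share 0.15 in AT1 P60 and with ribosomal protein share -0.34 in AT2 P60, -0.39 in AT1 P15 and -0.77 in AT1 P60. With cells thinned to 2000 UMIs, that of Malat1 was with depth -0.44 in AT1 P60, and that of Neat1 was with ribosomal protein share -0.50 in AT1 P60 and with the other gene 0.26 in AT2 P60, 0.21 in AT1 P3, 0.35 in AT1 P15 and 0.46 in AT1 P60. In cells of 4000 to 8000 UMIs, that of Malat1 was with depth -0.25 in AT1 P15 and -0.51 in AT1 P60, with mt- share 0.11 in AT1 P60, with ribosomal protein share -0.080 in AT2 P60 and -0.49 in AT1 P60 and with the other gene 0.38 in AT1 P15 and 0.43 in AT1 P60, and that of Neat1 was with mt- share 0.25 in AT1 P60, with ribosomal protein share -0.43 in AT1 P60 and with the other gene 0.34 in AT1 P15 and 0.34 in AT1 P60. Of 220 list medians, taken relative to the median of all genes, 7 moved by more than 0.2 and 1 reversed. With a minimum of 5 CPM, host genes of small nucleolar RNAs were at -0.94 for P60 over P15, against 0.22 at 20 CPM, and at -0.61 for P15 over P3 and 1.43 for AT2 over AT1. With the same minimum, immediate early genes were at -2.57 for P60 over P3 and the neighbours of the locus at 0.39 for P60 over P15. With all cells, immediate early genes were at 0.75 for AT2 over AT1 and -0.47 for P15 over P3, and ribosomal protein genes at -2.13 for P60 over P3. Of the 6 genes most like each RNA, the ranking at full depth kept 4 for Malat1 and 4 for Neat1, and the ranking by the mean of the 4 correlations kept 2 and 1. The causes of these shifts were not tested.

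The main limit is that each group is 1 library, so no value carries the spread between animals, and age, litter and library preparation cannot be told apart. Neat1 rests on medians of 2 to 11 UMIs per cell, so the share of a single cell is coarse, whereas Malat1 rests on medians of 176 to 873. A share of UMIs falls when any other RNA rises. Cells the authors removed before deposit were not seen here.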

Other observations

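Cells outside the sorted type showed other combinations of Malat1 and Neat1. In the P3 library, 142 club and ciliated-like cells of the airway, named from their markers, had a median Malat1 share of 1.97% and a median Neat1 share of 0.102% at a median depth of 12549.5 UMIs, against 4.15% and 0.0532% in the AT1-like cells at 7294 UMIs. They were thus lower in Malat1 and higher in Neat1. In 50 fibroblast and endothelial-like cells of the same library the medians were 3.06% and 0.00808%, and 52.0% of these cells had a Neat1 UMI. At P15, 88 fibroblast and mural-like cells had a median Malat1 share of 3.50% and a Neat1 UMI in 44.3% of cells, and 76 immune-like cells had 1.64% and 0.0165%. In the P60 AT1 library, 53 endothelial-like cells had 7.43% Malat1 and 0.0244% Neat1, against 16.0% and 0.208% in the AT1-like cells. Clusters of 42 to 142 cells of 1 library each stand behind these values, and they carry no test.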
